A study of Homo sapiens with 6 samples.

Results

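The 104 genes named for the oxidative phosphorylation (OXPHOS) complexes, chosen by symbol from 21475 genes, were followed in RNA of HaCaT cells with and without FGFR2. HaCaT is a spontaneously immortalized, non-tumorigenic human keratinocyte line. The RNA came from 3 wild-type (WT) and 3 FGFR2 knockout (KO) cell lines, sequenced as 1 library each. The KO lines had been made with CRISPR/Cas9 and a single guide RNA against exon 7 of FGFR2. HaCaT cells, of low passage per the labels, were grown in high-glucose medium with serum, and the labels name no other treatment. Passages of the single lines are not given in the sources used here. The KO lines and most WT lines of the study were clonally expanded, so a line can carry differences of its clone besides its genotype. The study's WT lines also include the original, uncloned population. The study describes its sequenced WT lines as clonal, and the labels do not say whether a replicate is that population. The labels do not say that same-numbered WT and KO lines belong together, and the p-values measure the spread between these 6 lines.

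The rule took protein-coding genes named as subunits of complexes I to V, without the NDUFAF assembly factors. Of the 104 genes, 13 are encoded by mitochondrial DNA (mtDNA) and 91 by nuclear DNA. The mtDNA genes comprised 7 of complex I, 1 of complex III, 3 of complex IV and 2 of complex V. The nuclear genes comprised 38 named for complex I, 4 for complex II, 10 for complex III, 19 for complex IV and 20 for complex V. A mean of at least 0.5 FPKM (fragments per kilobase of gene, scaled by library depth) over the 6 libraries was reached by 97 of the 104 genes, all 13 mtDNA genes among them. Of the 84 nuclear genes that passed, 80 encode subunits. The other 4 are ATP5IF1, which encodes an inhibitor of complex V, COX7A2L, which encodes a supercomplex factor, and the readthrough genes NDUFC2-KCTD14 and ATP5MF-PTCD1. NDUFA4 and NDUFA4L2 carry complex I names and were counted with complex IV, where the NDUFA4 protein is now placed.

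OXPHOS couples the transfer of electrons from NADH and succinate to oxygen with the synthesis of ATP. Complexes I, III and IV pump protons across the inner mitochondrial membrane, complex II feeds in electrons without pumping, and complex V makes ATP from the proton gradient. Complexes I, III, IV and V are built from the products of both genomes, whereas complex II is wholly nuclear-encoded. The mtDNA genes are transcribed as long precursors from both strands, cut largely at the tRNAs between them, and most of their transcripts are polyadenylated. The nuclear genes are transcribed singly, translated in the cytosol and their products imported.

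The compact layout of the mitochondrial chromosome sets limits on what reads can tell about single genes. In the hg38 reference, whose mitochondrial sequence has 16569 bases, 12 of the 13 genes lie on the plus strand and MT-ND6 alone lies on the minus strand. The overlaps of more than 1 base are shown here, with the shared bases in capitals, because reads within them match either gene.

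MT-ATP8/MT-ATP6, chrM:8515-8584, plus strand: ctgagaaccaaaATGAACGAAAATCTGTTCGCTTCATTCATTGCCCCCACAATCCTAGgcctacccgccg
MT-ND4L/MT-ND4, chrM:10748-10778, plus strand: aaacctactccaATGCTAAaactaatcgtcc

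The first overlap spans 46 bases, from 8527 to 8572, and runs from the ATG of MT-ATP6 to the stop codon TAG of MT-ATP8. The second spans 7 bases, from 10760 to 10766, with the ATG of MT-ND4 ahead of the stop codon TAA of MT-ND4L. The 3′ ends bear on a poly(A)-selected library, since 6 of the 13 genes end inside a codon and their stop codon is completed by the poly(A) tail. The last 12 bases of 3 genes are shown 5′ to 3′ on the gene's own strand, with the last codon, or the part of it that is encoded, in capitals.

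MT-ND3, chrM:10393-10404, plus strand: actgaaccgaaT
MT-ND1, chrM:4251-4262, plus strand: ccctcaaaccTA
MT-ND6, chrM:14149-14160, minus strand: cgggggaatAGG

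MT-ND3 and MT-ND1 encode only T and TA of their stop codons, whereas MT-ND6 ends on a whole codon, as 7 of the 13 genes do.

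The libraries were deep enough for all 13 mtDNA genes, with an estimated 67700000 to 88000000 fragments each. FGFR2 itself was lower in all 3 KO lines (2.26 to 4.31 FPKM) than in all WT lines (15.0 to 39.7 FPKM). Its log2 difference was -2.73, with a limma p of 9.2e-05 before and 0.261 after adjustment. All 10 keratinocyte markers examined lay above 0.5 FPKM, with summed levels of 12255 to 28252 FPKM in WT and 18247 to 38219 FPKM in KO. Of the other markers, 2 of 6 for fibroblasts, 1 of 4 for melanocytes, 1 of 4 for leukocytes and 2 of 3 for endothelium reached that mean. Their summed levels stayed below those of keratinocytes, at 7.95 to 33.2 FPKM in WT and 6.90 to 12.6 FPKM in KO for fibroblasts. COL1A1 was at 6.82 to 16.7 FPKM in all 6 libraries and DCN at 15.5 FPKM in WT replicate 2 and up to 1.66 FPKM elsewhere, while COL1A2, COL3A1 and PDGFRA were at or near 0 and LUM at up to 1.85 FPKM. For endothelium the sums were 18.1 to 27.2 FPKM in WT and 5.82 to 17.5 FPKM in KO, for leukocytes 11.7 to 20.7 and 4.498 to 10.98 FPKM, and for melanocytes 0.881 to 2.44 and 0.708 to 1.07 FPKM. The endothelial marker CDH5 reached the mean of 0.5 FPKM only through WT replicate 2 (4.92 FPKM, against up to 0.128 FPKM elsewhere). KRT10, a keratin of differentiating keratinocytes, ran from 607 to 2056 FPKM in WT and was at 1503, 530.0 and 86.2 FPKM in KO replicates 1 to 3. Its part in the OXPHOS values was not tested. In bulk RNA, fewer cells with a transcript and less of it per cell cannot be told apart.

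Transcripts from mtDNA were among the most abundant in these cells. The 13 genes together held 27.6%, 21.5% and 22.2% of the summed FPKM in WT replicates 1 to 3, and 15.8%, 23.7% and 11.9% in KO replicates 1 to 3. KO replicates 1 and 3 lay below all WT lines and KO replicate 2 lay above WT replicates 2 and 3, so the groups overlapped. The 80 nuclear subunits held 1.59% to 1.78% of the FPKM outside mtDNA in WT and 1.63% to 1.79% in KO.

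Complex IV supplied the most abundant mtDNA transcript. MT-CO2 encodes the subunit that takes up electrons from cytochrome c, and lies from 7586 to 8269. It was at 35856, 29932 and 33322 FPKM in WT replicates 1 to 3 and at 21094, 32041 and 15137 FPKM in KO replicates 1 to 3. KO replicate 2 lay within the WT range and the other KO lines below it (log2 difference -0.60, SE 0.41, adjusted p = 0.467, limma over 12241 genes with Benjamini-Hochberg adjustment). MT-CO3, from 9207 to 9990, encodes a core subunit without metal centres. It was at 26329, 23417 and 22877 FPKM in WT and at 15632, 22293 and 12814 FPKM in KO. All KO lines lay below all WT lines, KO replicate 2 by a narrow margin (log2 difference -0.55, SE 0.36, adjusted p = 0.442). MT-CO1, from 5904 to 7445, encodes the catalytic subunit with the heme and copper centre where oxygen is reduced. It ran from 15300.4 to 21539 FPKM in WT and from 10438 to 19743 FPKM in KO, and the groups overlapped (log2 difference -0.39, SE 0.37, adjusted p = 0.604).

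Of the 7 complex I subunits from mtDNA, all parts of the membrane arm that moves protons, 6 were lower in KO on the log2 scale and all 7 in mean FPKM. MT-ND3 (ENSG00000198840), from 10059 to 10404, was at 4719.9, 3727 and 4361 FPKM in WT replicates 1 to 3 and at 2662, 3522 and 2251 FPKM in KO replicates 1 to 3. The groups did not overlap, and the KO mean was 65.9% of the WT mean (4269 ± 503 against 2812 ± 649 FPKM, SD, n = 3 each). The log2 difference was -0.62 (SE 0.25) with a limma p of 0.0401 before and 0.284 after adjustment, and the exact two-sided permutation test gave 0.1, the smallest p that 3 lines against 3 allow. MT-ND4L, from 10470 to 10766, was at 13068, 9119 and 7904 FPKM in WT and at 7277, 7705 and 4417 FPKM in KO. These groups did not overlap either, and the spread among WT lines was wide (log2 difference -0.64, SE 0.34, adjusted p = 0.371). MT-ND1, MT-ND2, MT-ND4 and MT-ND5 had log2 differences from -0.55 to -0.50, with SE of 0.36 to 0.41, and all 4 overlapped between the groups.

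MT-ND6 was the only one of the 13 genes whose log2 mean was not lower in KO, while its mean FPKM was (537 ± 285 in WT and 493 ± 114 in KO, SD, n = 3 each). Transcribed from the other strand, it was also the least abundant, at 798, 233 and 580.2 FPKM in WT replicates 1 to 3 and at 476, 615 and 389 FPKM in KO replicates 1 to 3. All KO values lay within the WT range, whose low end was set by WT replicate 2 (log2 difference 0.03, SE 0.43, adjusted p = 0.983). The sign depended on the scaling and on that line: it was -0.07 with median-of-ratios scaling and -0.49 without WT replicate 2. The strand setting used in counting is not given in the sources used here, so reads from the opposite strand of MT-ND6 may be included. The libraries were poly(A)-selected, and the part of this selection in the level of MT-ND6 was not tested.

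Complexes III and V repeated the pattern of MT-CO2. MT-CYB, from 14747 to 15887, encodes cytochrome b, the only complex III subunit from mtDNA. It ran from 11607 to 14594 FPKM in WT, and was at 8166, 13860.0 and 5640.1 FPKM in KO replicates 1 to 3 (log2 difference -0.56, SE 0.38, adjusted p = 0.472). MT-ATP8, from 8366 to 8572, and MT-ATP6, from 8527 to 9207, encode the mtDNA subunits of complex V. MT-ATP8 was at 28315, 15135 and 18341 FPKM in WT and at 11743, 18264 and 8282 FPKM in KO. Its log2 difference, -0.72 (SE 0.42, adjusted p = 0.411), was the largest of the 13, and its values overlapped. MT-ATP6 ran from 21056 to 27913 FPKM in WT and from 11823 to 23607 FPKM in KO, with a log2 difference of -0.54 (SE 0.39, adjusted p = 0.487).

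**Figure D1:**
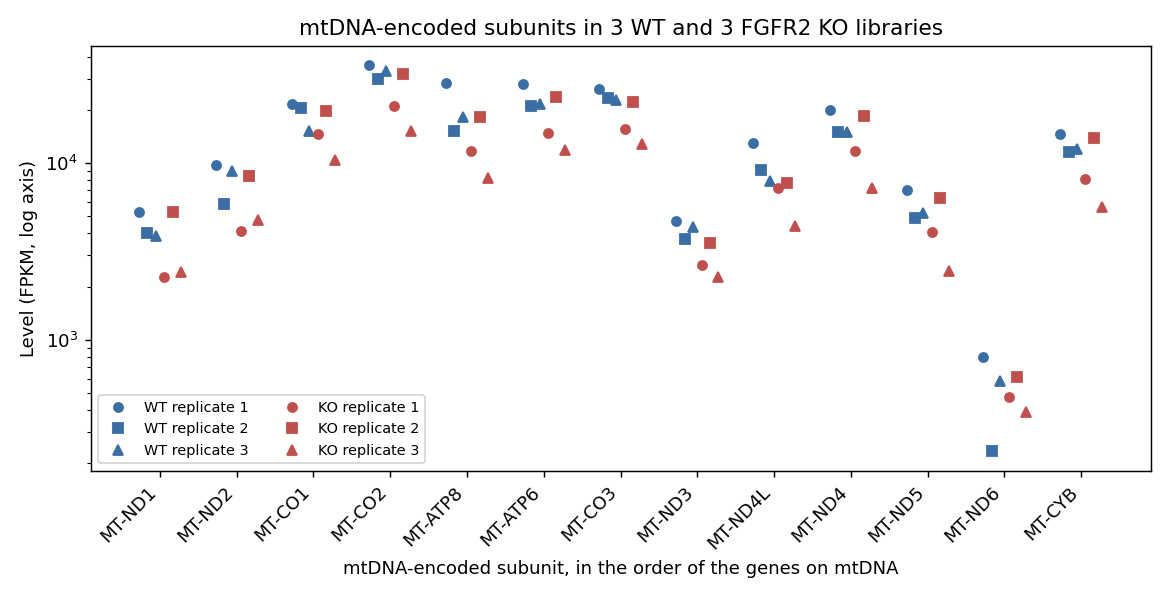
FPKM of the 13 mtDNA-encoded genes (log axis) in each of the 3 WT and 3 FGFR2 KO libraries, 1 point per library. The genes are in their order on mtDNA. In 12 of 13 genes, KO replicates 1 and 3 lie below all WT points, while KO replicate 2 lies below them in 3.

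Across the 13 genes, the median log2 difference between KO and WT was -0.55, and 12 of 13 were lower in KO on that scale, on which all counts of higher and lower genes below were made. A call asked for an adjusted p up to 0.05 together with a log2 difference of 0.5 or more in size. No gene met it, neither among the OXPHOS genes nor among all 12241 tested genes (0%), although limma gave a p up to 0.05 before adjustment to 2065 genes, 2 OXPHOS members among them. The smallest adjusted p of any gene was 0.261. The study, with a count model (DESeq2), did report differentially expressed genes, FGFR2 among them, so the lack of calls holds for this fit to FPKM. The same difference with a p up to 0.05 before adjustment was reached by 1 of 13 mtDNA genes, MT-ND3, and by 12.5% of all tested genes, 2.33% in the lower direction. KO and WT values did not overlap, all KO lower, in 3 of 13 mtDNA genes, against 5.77% of all tested genes in that direction and 24.1% in either. The 13 genes share precursors, so their counts are not independent of each other.

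The lines of a genotype differed from each other in the same genes. KO replicates 1 and 3 were below all WT lines in 12 of 13 genes each, whereas KO replicate 2 was below in 3 and above in 1. WT replicate 1 was the highest library in 12 of 13 genes, and KO replicate 3 the lowest in 10. As medians over the 13 genes, the log2 differences from the WT mean were -0.64, 0.06 and -0.98 in KO replicates 1 to 3, against 0.27, -0.14 and -0.11 in WT replicates 1 to 3. The spread among KO lines was therefore wider for mtDNA transcripts (median SD 0.54 on the log2 scale) than among WT lines (0.25), whereas for all tested genes these medians were 0.23 and 0.20. The median difference of -0.55 was -0.84 without KO replicate 2 and -0.32 without KO replicate 3. Quantile normalization, which gives genes of equal rank equal values, left a median of -0.16, with MT-CO1, MT-CO3 and MT-ATP6 at 0.07, 0.04 and 0.03. MT-CO2, the most abundant of the 13, had no difference left under it.

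Proportions among the 13 genes did not separate the genotypes. The median mtDNA gene was MT-CYB in every library. Relative to it, no other mtDNA gene had KO values that were all above or all below the WT values. For the first overlapping pair, the ratio of MT-ATP8 to MT-ATP6 was 1.01, 0.719 and 0.847 in WT replicates 1 to 3 and 0.793, 0.774 and 0.701 in KO replicates 1 to 3. For the second, the ratio of MT-ND4L to MT-ND4 was 0.655, 0.605 and 0.528 in WT and 0.620, 0.417 and 0.607 in KO. Both ratios overlapped between the groups. How the counting divided reads within the shared bases, or between mtDNA and its nuclear copies, is not given in the sources used here.

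The nuclear subunits lay near the rest of the genes. The median log2 difference of the 80 genes was 0.09, the same as over all 12241 tested genes (0.09), and 56 of the 80 (70.0%) averaged higher in KO, against 60.6% of all tested genes. No nuclear member passed the test, and none combined a p up to 0.05 before adjustment with a log2 difference of 0.5 or more in size, as 12.5% of all tested genes did. By line, the median log2 differences from the WT mean were 0.09, -0.03 and 0.22 in KO replicates 1 to 3 and -0.13, 0.09 and 0.05 in WT replicates 1 to 3. KO replicate 3, lowest for mtDNA transcripts, was the highest library in 43 of the 80 nuclear genes, and WT replicate 1, highest for mtDNA transcripts, was the lowest in 44. FPKM are shares of a library, so where mtDNA transcripts take less of it the other genes take more. The part of this in the order of the lines was not tested. With libraries scaled to the genes outside mtDNA the nuclear median was 0.01, and with median-of-ratios scaling -0.01, a scaling that lowered the median of all tested genes to 0.00. The nuclear median was 0.02 without KO replicate 3, 0.03 without WT replicate 1 and 0.15 without KO replicate 2.

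**Figure D2:**
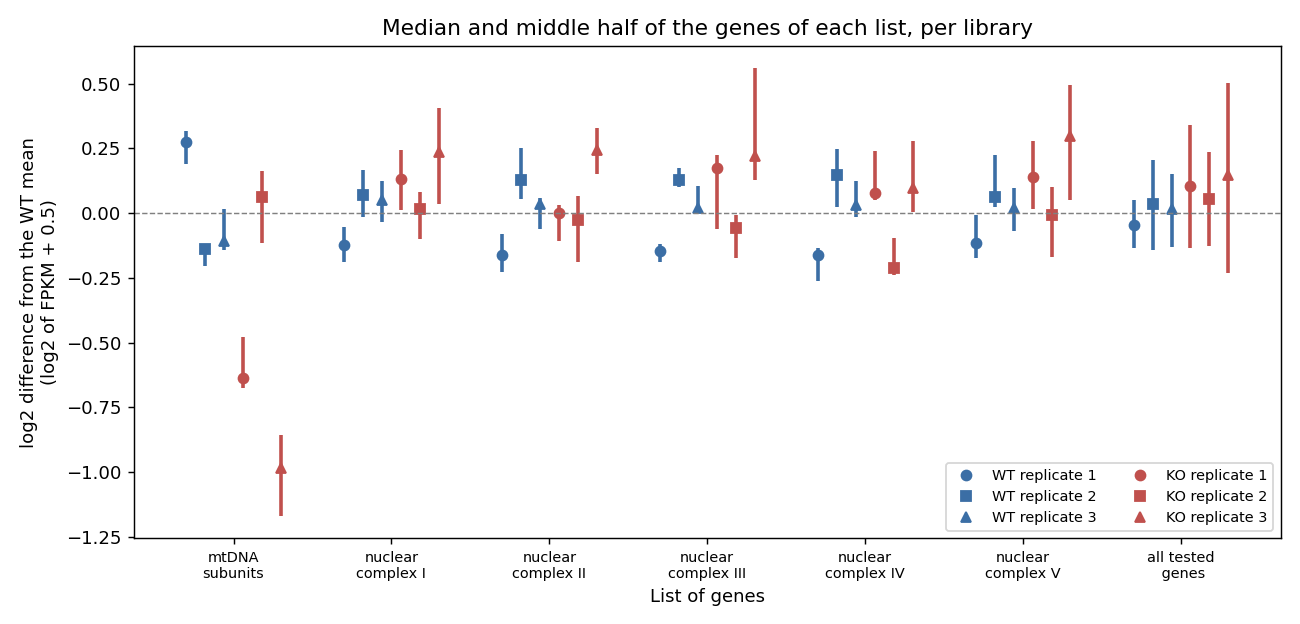
Log2 difference from the WT mean (log2 of FPKM + 0.5) in each library for lists of OXPHOS genes and for all tested genes. Points are medians over the genes of a list and bars span the middle 50% of them, so they do not show an error. Medians of mtDNA genes run from -0.98 to 0.27, whereas those of the nuclear subunits of complexes I to V run from -0.21 (KO replicate 2, complex IV) to 0.30 (KO replicate 3, complex V).

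In complex I, which passes electrons from NADH to ubiquinone, the 37 nuclear subunits had a median log2 difference of 0.12, with 28 averaging higher in KO. Under the alternatives that kept all lines, library weights aside, this median ran from 0.02 to 0.16. The 7 core subunits and the 30 accessory subunits had medians of 0.12 and 0.13. The most abundant were NDUFA1 (237 ± 19.9 FPKM in WT and 207 ± 4.33 in KO, SD, n = 3 each), NDUFV1 (211 ± 43.8 and 204 ± 13.2) and NDUFS6 (181 ± 43.3 and 217 ± 9.95). NDUFV1 carries the site where NADH is oxidized, and its values, 181.6 to 261 FPKM in WT and 190.2 to 217 FPKM in KO, overlapped throughout (log2 difference -0.03, SE 0.17, adjusted p = 0.936). The largest log2 difference among the nuclear subunits of the complex, 0.51 (SE 0.26, adjusted p = 0.353), was that of NDUFAB1, which is also the mitochondrial acyl carrier protein. NDUFAB1 was at 43.0, 64.8 and 57.0 FPKM in WT and at 79.7, 54.8 and 106.9 FPKM in KO, so KO replicate 2 lay within the WT range and KO replicate 3 far above it.

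Complex II, succinate dehydrogenase, is the complex with no mtDNA subunit. SDHA, the flavoprotein that oxidizes succinate, was at 178, 174 and 187 FPKM in WT and at 181, 188 and 203 FPKM in KO (log2 difference 0.09, SE 0.13, adjusted p = 0.745). SDHB, the iron-sulfur subunit, spread more among KO lines, at 104.6, 144 and 179.6 FPKM, than among WT lines, at 128, 146 and 139 FPKM (log2 difference 0.02, SE 0.20). SDHD, a membrane anchor, ran from 131 to 228 FPKM in WT and from 122 to 167 FPKM in KO, the high value being that of WT replicate 2 (log2 difference -0.11, SE 0.24). The median of the 4 genes was 0.05, and it turned to -0.04 with median-of-ratios scaling and to -0.09 without KO replicate 3.

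In complex III, which passes electrons from ubiquinol to cytochrome c, the 9 nuclear subunits had a median log2 difference of 0.08. UQCRC2, a core protein of the matrix side, was at 332 ± 35.9 FPKM in WT and 331 ± 26.8 in KO (SD, n = 3 each). UQCRH, the hinge protein that helps cytochrome c to bind, was at 187 ± 17.8 and 199 ± 31.3 FPKM, and UQCRC1, the other core protein, at 138 ± 10.8 and 155 ± 20.3 FPKM. All 3 overlapped between the groups. The median was -0.01 with median-of-ratios scaling.

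In complex IV, cytochrome c oxidase, the 13 nuclear subunits had a median log2 difference of 0.00, and 7 averaged higher in KO. COX4I1, the largest nuclear subunit, was at 302, 399.9 and 348 FPKM in WT and at 367, 313 and 366 FPKM in KO (log2 difference 0.00, SE 0.16, adjusted p = 0.999). COX6A1 was at 339 ± 52.5 FPKM in WT and 324 ± 36.0 in KO, and COX8A at 229 ± 62.9 and 250.02 ± 63.5 FPKM (SD, n = 3 each). The complex II to IV medians were thus within 0.10 of 0, and that of complex IV was -0.09 with median-of-ratios scaling.

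In complex V, ATP synthase, the 17 nuclear subunits had a median log2 difference of 0.17, and 12 averaged higher in KO. Under the alternatives that kept all lines, library weights aside, this median ran from 0.07 to 0.21. ATP5F1B, the catalytic beta subunit and the most abundant nuclear OXPHOS transcript, was at 678, 1010.4 and 769 FPKM in WT and at 993, 758 and 1185 FPKM in KO. Its groups overlapped (819 ± 172 against 978 ± 214 FPKM, SD, n = 3 each, log2 difference 0.25, SE 0.24, adjusted p = 0.596). ATP5F1A, the alpha subunit, was at 419 ± 49.3 and 473 ± 88.3 FPKM, and ATP5MF, a membrane subunit, at 238 ± 44.2 and 264 ± 1.61 FPKM. By place in the enzyme, the medians were 0.25 for the 5 subunits of the F1 head, 0.25 for the 3 genes of the c ring, 0.23 for the 4 of the peripheral stalk and -0.07 for the 5 others in the membrane part. For the F1 head, the median differences from the WT mean were 0.28, -0.09 and 0.50 in KO replicates 1 to 3.

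**Figure D3:**
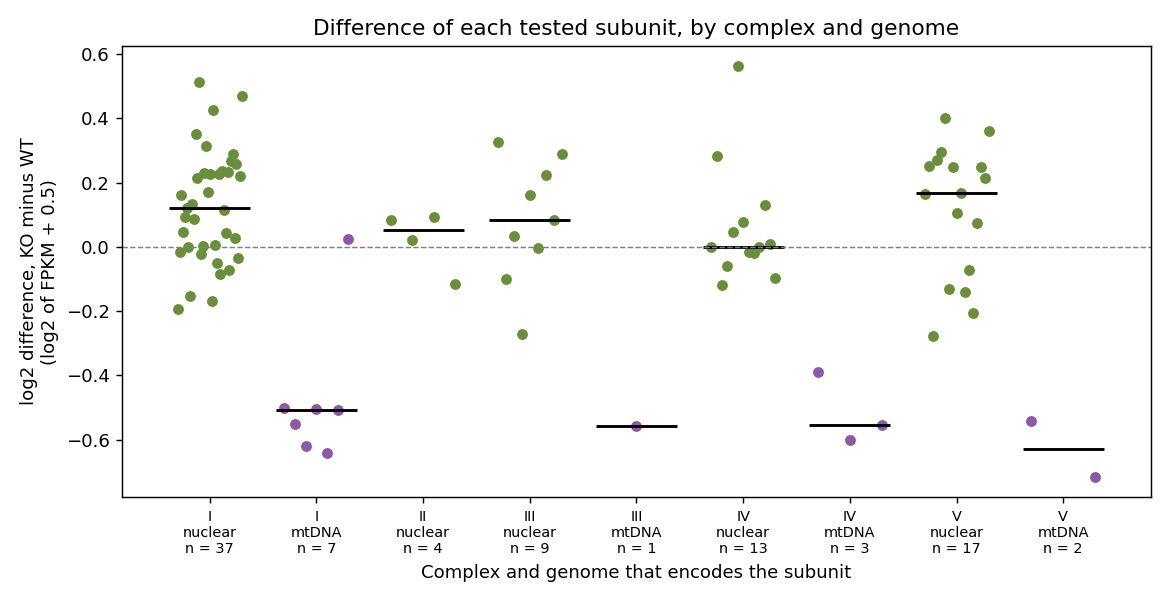
Log2 difference between FGFR2 KO and WT (log2 of FPKM + 0.5) for each tested OXPHOS subunit, grouped by complex and by genome, 1 point per gene, with the median of each group. Medians of the mtDNA groups lie between -0.63 and -0.51, and those of the nuclear groups between 0.00 and 0.17, near the 0.09 of all tested genes.

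Transcripts from mtDNA were also compared with nuclear transcripts of the same library, first over all complexes together, with complex II on the nuclear side. The ratio of the median mtDNA level to the median nuclear level (FPKM + 0.5, per gene length) was 149, 115 and 111 in WT replicates 1 to 3 and 77.7, 127 and 46.7 in KO replicates 1 to 3. KO replicates 1 and 3 lay below all WT lines and KO replicate 2 within them. On the log2 scale, the median nuclear level minus the median mtDNA level averaged -6.96 ± 0.23 in WT and -6.27 ± 0.72 in KO (SD, n = 3 each), a difference of 0.68. This ratio is taken within a library and so does not depend on how libraries are scaled, apart from the added 0.5 and from quantile normalization. The difference was 1.04 without KO replicate 2 and 0.32 without KO replicate 3.

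The complexes behaved alike in direction, but their mtDNA genes share precursors and libraries, so the 4 are not independent of each other. The same log2 difference was 0.72 for complex I, 0.69 for complex III, 0.55 for complex IV and 0.88 for complex V. In complex V the ratio was 258, 146 and 153 in WT replicates 1 to 3 and 99.3, 161 and 58.0 in KO replicates 1 to 3. In complex IV it was 184, 129 and 146 in WT and 92.4, 168 and 71.5 in KO. In each of the 4 complexes KO replicate 2 lay within or above the WT range, so the groups overlapped, and no test was run on these ratios. With quantile normalization the complex IV difference was -0.17.

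**Figure D4:**
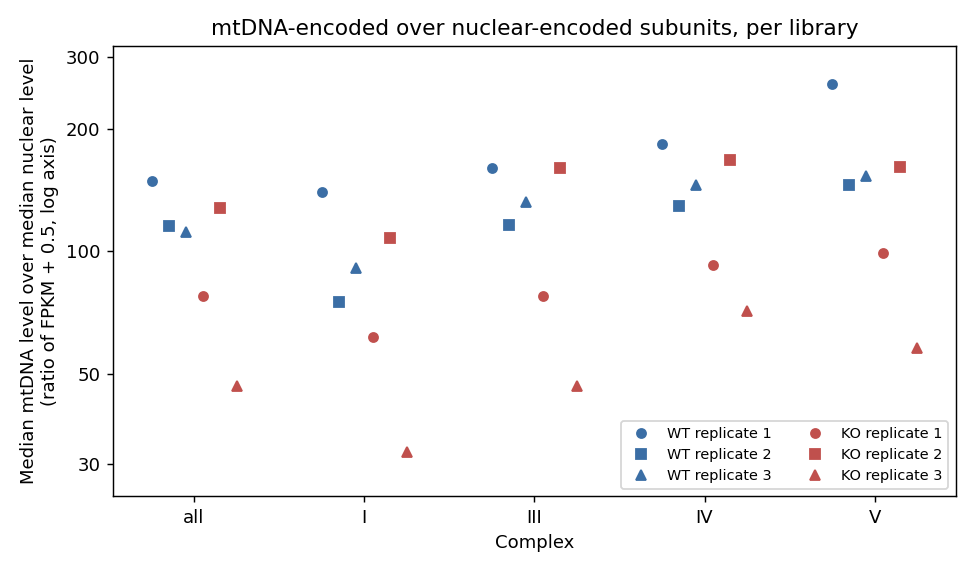
Ratio of the median mtDNA level to the median nuclear level (FPKM + 0.5, log axis) in each library, for all complexes together and for complexes I, III, IV and V, 1 point per library. KO replicates 1 and 3 (77.7 and 46.7 over all complexes) lie below the WT points (111 to 149), and KO replicate 2 (127) lies among them.

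Few single OXPHOS genes separated the genotypes. KO and WT values did not overlap in 15 of 97 members (15.5%), against 24.1% of all tested genes. Of the 80 nuclear subunits, 7 were higher in all KO lines, against 18.3% of all tested genes, and 2 were lower in all KO lines, against 5.77%. These 9 genes were named after their values were seen. Of the 7, 5 encode accessory subunits of complex I (NDUFV3, NDUFA8, NDUFB4, NDUFA6 and NDUFA13), NDUFS8 encodes an iron-sulfur core subunit of complex I, and ATP5PD encodes the d subunit of the stalk of complex V. NDUFV3 (ENSG00000160194), on chromosome 21 from 42879644 to 42913304, was at 7.33, 6.62 and 10.2 FPKM in WT and at 10.7, 10.7 and 12.1 FPKM in KO. WT replicate 3 came close to the KO lines (log2 difference 0.47, SE 0.19, adjusted p = 0.284). ATP5PD, on chromosome 17 from 75038863 to 75046985, was at 119, 122 and 117 FPKM in WT and at 131, 138 and 157 FPKM in KO (log2 difference 0.25, SE 0.13, adjusted p = 0.357). Log2 differences of the other 5 ran from 0.09 to 0.35, and that of NDUFA13 turned to -0.0035 with median-of-ratios scaling and to -0.03 with quantile normalization.

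The nuclear subunits lower in all KO lines were NDUFA1 of complex I and ATP5MK of complex V. NDUFA1 was at 225, 260.0 and 226 FPKM in WT and at 211, 203 and 207 FPKM in KO (log2 difference -0.19, SE 0.13, adjusted p = 0.466). ATP5MK, on chromosome 10 from 103389041 to 103396492, was at 99.9, 101.0 and 98.7 FPKM in WT and at 81.2, 86.9 and 91.6 FPKM in KO (log2 difference -0.21, SE 0.12, adjusted p = 0.402). FGFR2 lies on the same chromosome, where the median of 463 genes stood -0.43, -0.16 and -0.19 from the median of all genes in KO replicates 1 to 3, and 0.02, 0.14 and -0.16 in WT replicates 1 to 3. ATP5F1C, the gamma subunit of the F1 head, and NDUFB8 also lie there. ATP5F1C was at 245.7, 301 and 222 FPKM in WT and at 183.4, 207.6 and 242 FPKM in KO, the lowest log2 difference of the nuclear subunits (-0.28, SE 0.17, adjusted p = 0.436). NDUFB8 had a log2 difference of -0.05 (SE 0.14). The part of the chromosome 10 shift in these values was not tested.

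Leaving out KO replicate 2, an alternative chosen after the data were seen, raised the counts for members and background alike. Over all tested genes 44.5% then did not overlap. KO and WT values did not overlap, with KO lower, in 12 of 13 mtDNA genes and 4 of 80 nuclear subunits, against 13.0% of all tested genes. With KO higher, they did not overlap in 25 of 80 nuclear subunits, against 31.4%. With library quality weights, 4 members were called (MT-ND3 at -0.74, NDUFV3 at 0.52, NDUFAB1 at 0.77 and NDUFB6 at 0.62 on the log2 scale), as were 11.4% of all tested genes, 9.48% higher and 1.93% lower in KO. In that fit 1 line, WT replicate 1, carried 89.7% of the weight of the WT group.

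Several tissue-specific isoforms were at or near 0. COX4I2, COX6A2, COX7A1 and COX7B2 were listed at 0 in all 6 libraries. COX8C, of the testis, was listed at 0 in all KO lines and in WT replicate 3, and at 0.023 and 0.054 FPKM in WT replicates 1 and 2. ATP5MGL and UQCRHL, copies of ATP5MG and UQCRH, stayed at or below 0.169 FPKM. For a transcript of 1 kb, 3 fragments correspond to 0.034 to 0.044 FPKM at these depths, a limit of counting error only. Their counterparts COX4I1, COX6A1, COX7A2 and COX8A had WT means of 350.0, 339, 141 and 229 FPKM.

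Other isoforms were present together. COX6B1 was at 180.4 ± 17.1 FPKM in WT and 186 ± 13.2 in KO (SD, n = 3 each). COX6B2, an isoform known from testis, was at 6.10, 5.34 and 13.7 FPKM in WT and at 15.4, 9.24 and 10.9 FPKM in KO, which overlapped (log2 difference 0.56, SE 0.36, adjusted p = 0.437). NDUFA4 was at 176 ± 17.5 FPKM in WT and 178 ± 26.8 in KO, whereas NDUFA4L2, known as a hypoxia-induced relative, was at 1.29 ± 0.777 and 1.18 ± 0.782 FPKM. Of the 3 genes that encode the identical c subunit of the rotor ring, ATP5MC3 and ATP5MC1 averaged higher in KO and ATP5MC2 lower. ATP5MC1 was at 94.0, 102.9 and 100.2 FPKM in WT and at 102.4, 128 and 171 FPKM in KO, with KO replicate 1 inside the WT range (log2 difference 0.40, SE 0.20, adjusted p = 0.333). ATP5MC3 was at 124 ± 13.5 and 148 ± 23.2 FPKM, and ATP5MC2 at 92.5 ± 14.1 and 84.1 ± 9.50 FPKM. ATP5IF1, the inhibitor of ATP hydrolysis by complex V, was at 114 ± 11.5 FPKM in WT and at 170.1, 114 and 98.6 FPKM in KO replicates 1 to 3. Its log2 difference of 0.13 (SE 0.21, adjusted p = 0.777) turned to -0.10 without KO replicate 1, the only KO line above the WT range.

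Sequence motifs known from OXPHOS promoters were searched from 250 bases before to 50 bases after the start of each gene, in RefSeq promoters of GRCh38.p14. Of the 80 nuclear subunits, 65 had a promoter in the table. The ETS motif CCGGAAG, on either strand, was found in 20 of 65 (30.8%), against 20.2% of 9809 tested genes and 10.7% of all 27305 promoters. The YY1 motif AAGATGGCG, on either strand, was found in 8 of 65 (12.3%), against 4.11% and 1.85%. The ETS and YY1 motifs share the letters AAG and can overlap. A match is a stretch of letters and not a bound site. Matches are shown for ATP5PD, higher in all KO lines, and ATP5MK, lower in all KO lines, with the motif in capitals and written 5′ to 3′ on the strand of the gene.

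ATP5PD, ETS motif, GRCh38.p14 chr17:75047052-75047081, minus strand: ccgggaagataCTTCCGGaaccagccctca
ATP5MK, ETS motif, GRCh38.p14 chr10:103396617-103396646, minus strand: gtgcaattcttCCGGAAGtgtgggcgggct

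The window of ATP5PD holds the motif in its reverse complement. In that of ATP5MK the motif and its reverse complement overlap, and only the first is in capitals. No comparison of levels by motif was made.

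Genes that assemble the complexes or carry electrons between them were followed as the surrounding pathway. These 63 genes, a list written with earlier results of these data known, had a median log2 difference of 0.19, against 0.09 over all tested genes. Of the 63, 52 (82.5%) averaged higher in KO, against 60.6% of all tested genes. None was called. A p up to 0.05 before adjustment, with a log2 difference of 0.5 or more in size, was reached by 8 of 63, all higher in KO. This is near the share of all tested genes in that direction (10.2%). KO and WT values did not overlap in 17, all higher in KO (27.0%), against 18.3%. For the 15 complex I assembly factors the median was 0.31 and 14 (93.3%) averaged higher. The list's median was 0.10 with median-of-ratios scaling and 0.30 without KO replicate 2.

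Of the 8 genes, 5 serve the assembly of complexes I, III and IV. COA7, an assembly factor of complex IV, was at 5.53, 6.16 and 6.85 FPKM in WT and at 11.4, 8.72 and 17.2 FPKM in KO (log2 difference 0.90, SE 0.25, adjusted p = 0.261). NDUFAF8, an assembly factor of complex I, was at 14.0, 15.3 and 11.7 FPKM in WT and at 25.3, 18.3 and 40.5 FPKM in KO (log2 difference 0.94, SE 0.28, adjusted p = 0.261). BCS1L, which inserts the Rieske iron-sulfur protein into complex III, was at 15.6, 19.0 and 19.5 FPKM in WT and at 30.2, 22.1 and 35.6 FPKM in KO (log2 difference 0.67, SE 0.20, adjusted p = 0.261). In all 3 genes every KO line lay above every WT line, KO replicate 2 was the lowest of the KO lines and KO replicate 3 the highest. UQCC2 of complex III assembly and NDUFAF2 of complex I assembly had log2 differences of 0.58 (SE 0.22) and 0.77 (SE 0.32). The others were SDHAF3, for complex II (0.60, SE 0.20), and COQ3 (0.65, SE 0.24) and PDSS1 (0.67, SE 0.28), enzymes of ubiquinone synthesis. Adjusted p-values of these last 5 ran from 0.261 to 0.295, and the exact two-sided permutation test gave 0.1 for each of the 8 genes. The 8 were picked by their limma p and log2 difference on these same values, so their separation is no further support.

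**Figure D5:**
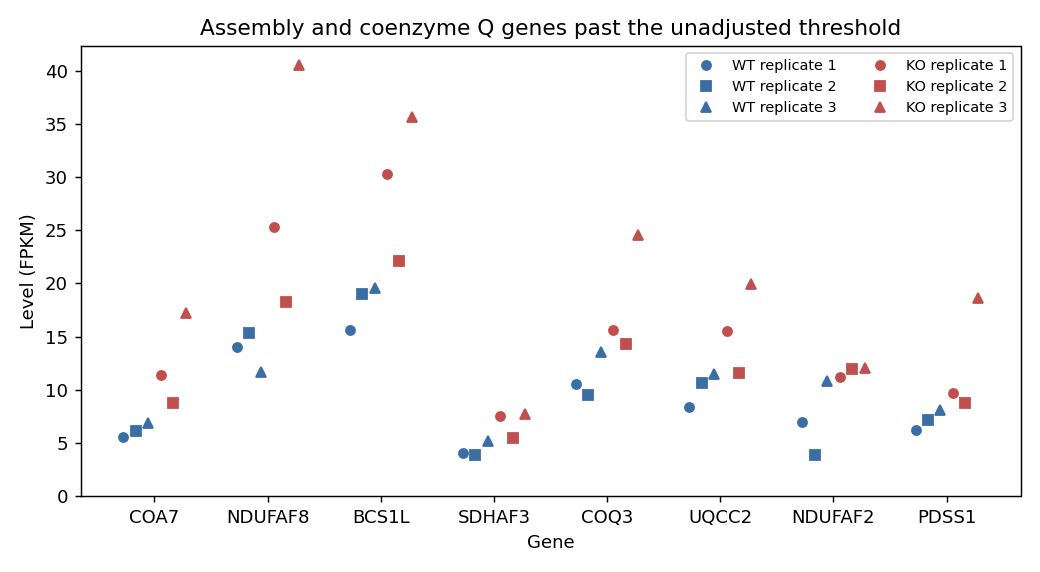
FPKM (linear axis) of 8 assembly and electron carrier genes in each WT and FGFR2 KO library, 1 point per library. These genes were picked on the values shown, for a p up to 0.05 before adjustment and a log2 difference of 0.5 or more in size. In all 8 genes the 3 KO points lie above the 3 WT points, for COA7 at 8.72 to 17.2 against 5.53 to 6.85 FPKM.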

How the data were processed

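Poly(A)-selected RNA of 3 WT and 3 FGFR2 KO HaCaT lines was sequenced with a stranded kit. Per the study's methods and the submitters' processing notes, reads were trimmed with fastp 0.20.0 and quantified with Kallisto 0.46.1 on GRCh38.p13. The values the authors deposited are FPKM per gene. How they were derived from the Kallisto estimates, and the gene lengths used, are not given in the sources used here. Relative to the summed library, FPKM move together when abundant transcripts vary.

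Of 21493 listed genes, 18 Y copies of pseudoautosomal genes repeated their X copies and were left out. Symbols and positions came from GENCODE 44, with 21400 genes matched. From the steps of low values, depth was estimated as 67700000 to 88000000 fragments. Since 67.0% to 71.1% of 533 to 611 low values per library came out whole within 0.02, where chance gives 4%, reads could not be rebuilt and no count model was run.

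The 12241 genes that averaged 0.5 FPKM or more were compared with limma 3.58.1 (R 4.3.3) on log2(FPKM + 0.5) with a mean-variance trend and Benjamini-Hochberg adjustment over all of them. This scale understates differences of low genes. Calls needed an adjusted p up to 0.05 and a log2 difference of 0.5 or more in size. The script was tested on simulated data with independent noise per gene. These data held no shifts shared by many genes of a line, so the test does not cover such shifts. Single genes were also compared with the exact two-sided permutation test, which cannot go below 0.1 here. Lists have no p. Values of genes with near-identical copies, overlaps or readthrough are uncertain.

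Genes were named by a rule: all mtDNA genes, the 3 most abundant nuclear subunits per complex, nuclear members past the thresholds or, if under 10, past the unadjusted ones, the isoform families, ATP5IF1 and members below 0.5 FPKM. Other genes were named after their values were seen. The members, lists and tests were chosen with earlier results of these data known. Alternatives were pseudocounts of 0.1 and 1, no filter or a mean of 2 FPKM, TPM, median-of-ratios and quantile scaling, scaling to genes outside mtDNA, a replicate block, library weights and leaving out each line.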

Additional observations from a re-analysis of the deposited data

How the results depend on the processing

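All comparisons rest on 3 lines a genotype. Depth limits only members listed near 0. Of the alternatives, 1 changed a count of calls. With library quality weights 1396 genes and 4 OXPHOS members were called, against 0 in each case otherwise. With the replicate number as a replicate block 0 genes were called, and same-numbered lines did not all deviate together (correlations of deviations of -0.21, 0.22 and 0.05 over 12241 genes), so the numbers were not taken as pairs. The numbers of non-overlapping members without KO replicate 2, chosen after seeing the data, were 27 higher and 17 lower. Of the 17, 12 were mtDNA genes, a number fixed by that choice.

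Leaving out each line in turn, the median log2 difference ran from -0.84 to -0.32 for mtDNA genes, from 0.02 to 0.15 for nuclear subunits and from 0.13 to 0.30 for the assembly and carrier genes, and the nuclear minus mtDNA difference from 0.32 to 1.04. By complex, the nuclear medians ran from 0.05 to 0.17 (I), -0.09 to 0.11 (II), 0.01 to 0.22 (III), -0.08 to 0.10 (IV) and 0.10 to 0.24 (V). The same fits gave -0.49 to 0.40 for MT-ND6, -0.14 to 0.030 for NDUFB8 and -0.10 to 0.29 for ATP5IF1.

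The median of all tested genes was 0.012 without a filter, -0.00020 with median-of-ratios scaling, 0.014 with scaling to genes outside mtDNA and -0.0084 with quantile normalization, against 0.09. MT-ND6 turned to -0.070, -0.055 and -0.085 under these 3 scalings and to -0.61 with weights. NDUFA13 turned to -0.0035 with median-of-ratios scaling and to -0.025 with quantile normalization. Quantile normalization also turned MT-CO1, MT-CO3 and MT-ATP6 to 0.073, 0.040 and 0.029 and the complex IV balance to -0.17, because it sets genes of equal rank to 1 value. For the other turns the cause was not tested.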
